A study of Mus musculus with 7 samples.

Results

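The miR-379 to miR-410 cluster is a run of microRNA (miRNA) hairpins in the imprinted Dlk1-Dio3 region of mouse chromosome 12. Its members were taken by hairpin number, with every strand that the PCR panel measures. That gave 44 of the 517 mouse miRNAs on the panel, from 32 hairpins. The rule itself uses no measured value, though it was set with earlier results of these data known. In the RefSeq annotation of build GRCm38.p6 the hairpins lie at chr12:109709060-109743795, a span of 34.7 kb that opens with miR-379 and closes with miR-410. The 30 hairpins with a matched mature sequence are all annotated on the plus strand. The last 7 hairpins, from miR-453 on, lie inside the annotated span of the non-coding RNA gene Mirg, and the other 25 lie before it. The panel has no assay for miR-412 or miR-541 of the same run. Of the hairpins, 12 are measured on both strands, where a star marks the strand first thought to be the minor one.

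Total RNA came from 3 cultures of M1 macrophages and from 4 aortas, each labelled as its own biological replicate. The macrophages were grown from bone marrow of C57BL/6 mice for 7 days in medium conditioned by L929 cells, then stimulated with lipopolysaccharide (100 ng/ml, over 14 hours) and with interferon-γ (10 ng/ml, over 6 hours). M1 names the inflammatory state so reached. The aortas were untreated, and their strain label is apoE-/-, while the series title calls the tissue normal, so their strain is uncertain. Strain, culture and sample type cannot be told apart. All mice were females of 6 to 8 weeks, no macrophages without the stimulus were analysed here, and the aorta samples hold all cells of the vessel.

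Imprinted genes are read from the copy of 1 parent. In the Dlk1-Dio3 region the miRNAs and long non-coding RNAs come from the maternal chromosome and the protein-coding genes from the paternal one, and the miRNAs of the cluster are thought to be cut from a long shared precursor transcript. Their levels are known to be high in brain, embryo and placenta. Mice that lack the cluster adapt poorly to the fasting that follows birth.

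The readout is the cycle threshold (Ct), or the number of PCR cycles before an assay crosses its threshold, so a lower Ct stands for more target, and wells that never crossed are listed at Ct 40. A miRNA counts as detected up to Ct 35, and any later well enters at 35. To scale a sample, the miRNA's Ct is taken off the mean Ct of 296 reference miRNAs, those found in each of the 7 samples. The scaled level is in log2 units on the assumption, not measured here, that every cycle doubles the product. Differences are M1 macrophages minus aorta.

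Sequences are shown where the results turn on members detected in every sample or on members with closely similar letters. RefSeq (GRCm38.p6) held a mature sequence for 40 of the 44 members. miR-299*, miR-376c, miR-487b and miR-485 are named only. The arm of an assay with no strand mark was taken from the usual naming of these miRNAs. Capitals mark the seed, bases 2 to 8, which pairs with target messenger RNAs. The first set holds the members detected in all 7 samples that passed the test between the groups, in order along the cluster. miR-376c also belongs to it but has no sequence to show.

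miR-379: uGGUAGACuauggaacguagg
miR-411: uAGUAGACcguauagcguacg
miR-494: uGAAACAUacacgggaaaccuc
miR-667: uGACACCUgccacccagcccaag
miR-409-3p: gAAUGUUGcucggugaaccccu

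The second set holds the miR-376 hairpins, which lie close together and whose assays differed in macrophages. miR-376b* and miR-376c* have the same letter at 21 of 22 positions and share the seed UGGAUAU, the only seed that members share. miR-376a and miR-376b have the same letter at 18 of 21 positions.

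miR-376a: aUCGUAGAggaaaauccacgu
miR-376b: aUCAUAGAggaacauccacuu
miR-376a*: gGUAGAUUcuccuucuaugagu
miR-376b*: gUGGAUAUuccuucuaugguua
miR-376c*: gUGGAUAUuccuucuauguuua

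The third set holds miR-300 and miR-381, which have the same letter at 19 of 22 positions, and miR-495 and miR-543, which do so at 18 of 22. Whether an assay picks up a near-identical partner was not tested.

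miR-300: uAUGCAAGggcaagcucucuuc
miR-381: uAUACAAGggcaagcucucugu
miR-495: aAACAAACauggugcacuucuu
miR-543: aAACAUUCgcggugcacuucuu

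The samples differed in depth. The 296 shared miRNAs had a mean Ct of 25.4, 25.5 and 27.8 in M1 macrophages, against 23.5, 24.7, 22.6 and 23.4 in aortas, so the limit of Ct 35 lay at a scaled level of -9.61, -9.55 and -7.23 in macrophages and between -12.4 and -10.3 in aortas. The macrophage markers miR-223, miR-142-3p and miR-155 had a summed scaled level of 9.40 to 10.1 in M1 macrophages and 4.32 to 5.70 in aortas. The smooth muscle markers miR-143 and miR-145 summed to -3.18 to -1.23 in M1 macrophages and 12.1 to 13.1 in aortas, the endothelial markers to -2.90 to -1.65 in macrophages and 8.29 to 8.87 in aortas, and the fibroblast markers to -1.30 to -0.968 in macrophages and 6.30 to 7.46 in aortas. Of 17 markers of cell types other than myeloid cells, 15 were detected in every macrophage sample and all 17 in every aorta, with miR-133a and miR-486 detected in no macrophage sample. Nerve markers summed to 5.28 to 16.3 in M1 macrophages and 0.138 to 4.06 in aortas, with miR-124 of macrophage replicate 1 at a Ct of 9.10. That sum is carried by miR-124, with mean levels of 8.95 in macrophages and 0.85 in aortas. miR-9 went the other way, at -3.25 in macrophages and -0.231 in aortas. miR-128a was at -2.18 in macrophages and -3.06 in aortas. The part of these cell types in the members' levels was not tested, and in such bulk RNA fewer cells of a type and less RNA per cell cannot be told apart.

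Far fewer members were detected in the macrophages than in the aortas. Of the 44 members, 16, 16 and 10 were detected in M1 macrophage replicates 1 to 3, against 39, 34, 42 and 39 in aorta replicates 1 to 4. Over all 517 miRNAs the counts were 359, 366 and 326 in macrophages and 452, 416, 454 and 424 in aortas. A macrophage sample thus held 22.7% to 36.4% of the members and 63.1% to 70.8% of all miRNAs, and an aorta 77.3% to 95.5% of the members and 80.5% to 87.8% of all miRNAs.

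Because the macrophage samples crossed later as a whole, detection was also counted at the same distance past each sample's mean Ct, 7.23 cycles, a limit chosen after seeing the data. It left 15, 13 and 10 members in M1 macrophages and 35, 30, 36 and 33 in aortas. Of all miRNAs it left 66.0%, 67.3% and 63.1% in macrophages and 80.9%, 75.2%, 79.3% and 75.8% in aortas.

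In none of the macrophage samples and all 4 aortas, 17 of the 44 members were detected (38.6%), and 48 of all 517 miRNAs had that pattern (9.28%). The 48 include these 17 and 7 other miRNAs of the Dlk1-Dio3 region. In every macrophage sample, 10 members were detected, or 22.7%, where 60.5% of all 517 miRNAs were. These 10 are miR-379, miR-411, miR-758, miR-494, miR-667, miR-376c, miR-376b, miR-300, miR-381 and miR-409-3p. A further 3 were detected in 2 macrophage samples, 6 in 1 and 25 in none. miR-382* was detected in no sample, and miR-453 and miR-654-5p only in aorta replicate 3. With 3 samples against 4, no exact permutation test of such counts can pass a threshold of 0.05 on 2 sides, so the counts stand as a description.

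**Figure D1:**
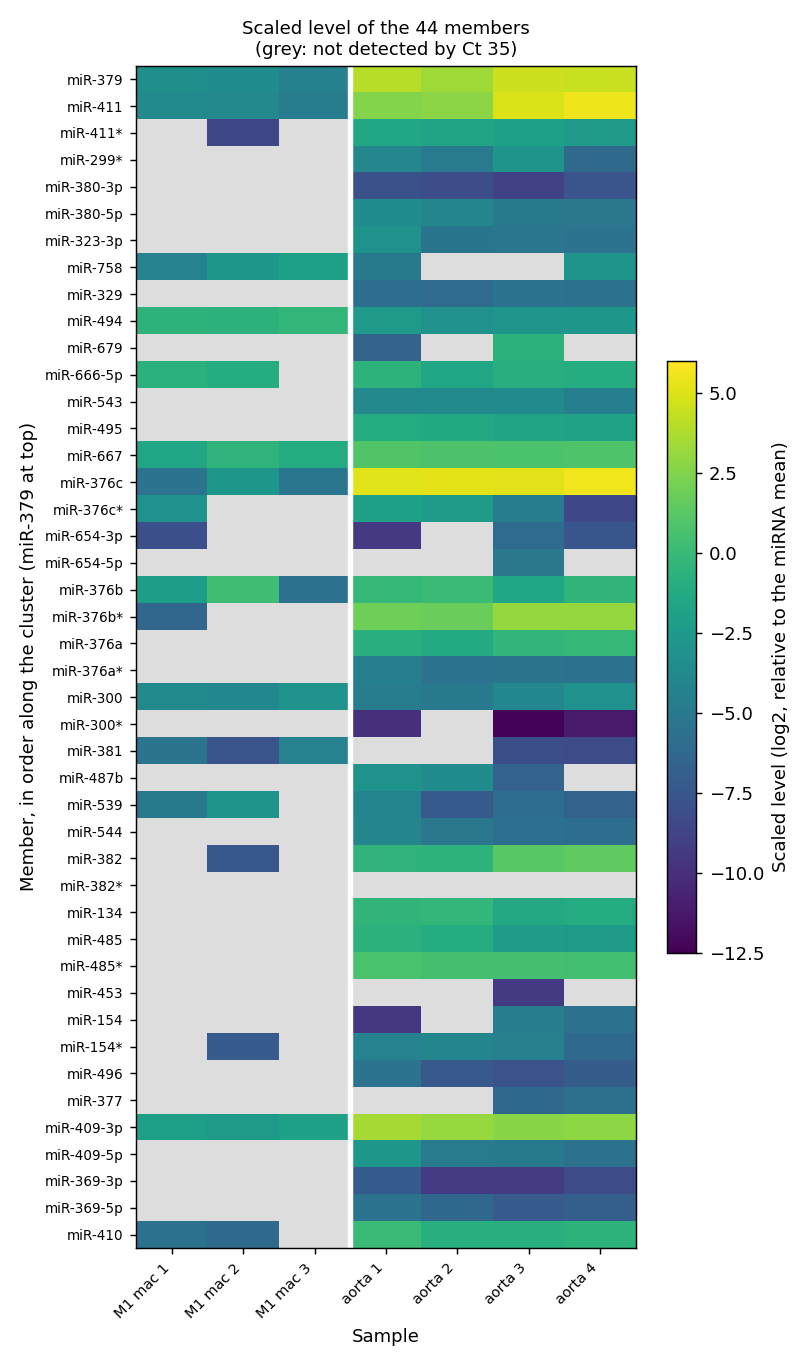
Scaled level (log2, colour) of the 44 members, 1 row each in order along the cluster, in 3 M1 macrophage samples on the left and 4 aortas on the right; grey marks wells not detected by Ct 35. Grey fills most of the macrophage columns, where 16, 16 and 10 members were detected, and few cells of the aorta columns.

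Of the 44 members, 39 entered the test across all miRNAs, which asked for detection in at least 3 samples of either group. Through the macrophages alone 2 of them passed that filter (miR-381 and miR-758), through the aortas alone 29 and through both 8. Most tested members thus entered through detection in the aortas, so the counts of calls over the tested members carry that selection. M1 macrophages were lower for 24 of the 39 and higher for 2, and 13 did not pass (limma, Benjamini-Hochberg adjusted p under 0.05 over 429 miRNAs). Among all 429, 30.8% were lower and 24.7% were higher, together 55.5%. The median difference was -3.57 over the 39 members and -0.208 over the 429 miRNAs. These medians carry the same selection, as 116 of the 429 entered through the aortas alone. Among tested miRNAs detected in no macrophage sample, 14 of 20 members and 38 of all 61 were lower. Their medians were -3.83 and -3.60, but the 61 include the 20 members and 9 other miRNAs of the Dlk1-Dio3 region. Outside the region, 17 of 32 such miRNAs were lower, with a median of -2.93.

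The 8 members detected in all 7 samples are free of the limit. M1 macrophages were lower for 5 of them and higher for 1. Among the 296 miRNAs detected in all 7 samples, 25% were lower and 32.1% higher. The median difference was -3.60 over the 8 members and 0.557 over the 296. Of the 24 lower calls, 22 held under each of 6 other scalings, and the 2 that did not were miR-154* and miR-369-5p.

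The earliest-crossing members of the aortas were among those with the largest differences. miR-376c, of a hairpin family that is edited from adenosine to inosine in human and mouse brain, had the highest mean scaled level of all members in aorta. Its Ct was 30.9, 28.2 and 33.0 in M1 macrophages, against 18.4, 19.5, 17.5 and 17.8 in aortas. Every macrophage sample thus crossed later than every aorta. The scaled level was -4.47 ± 1.52 (SD, n = 3) in M1 macrophages and 5.26 ± 0.24 (SD, n = 4) in aortas, 850-fold lower in macrophages (log2 difference -9.73 ± 0.70 SE, limma adjusted p = 4.58e-05). Without macrophage replicate 2, the highest of the 3, the difference was -10.58.

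miR-379 opens the cluster and lies 1.12 kb before miR-411. Its Ct was 28.7, 29.0 and 32.1 in M1 macrophages, against 19.5, 21.3, 18.0 and 19.0 in aortas. The scaled level was -3.73 ± 0.559 (SD, n = 3) in M1 macrophages and 4.12 ± 0.55 (SD, n = 4) in aortas, 230-fold lower (log2 difference -7.84 ± 0.48 SE, limma adjusted p = 2.7e-05). The groups did not overlap, which for levels in macrophages below every aorta held for 31.5% of the 429 miRNAs tested.

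miR-411 shares much of its 5′ end with miR-379. It crossed at 29.1, 29.2 and 32.5 in M1 macrophages, against 20.9, 21.9, 17.6 and 17.9 in aortas, 266-fold lower (log2 difference -8.06 ± 0.85 SE, limma adjusted p = 0.000207). The macrophage levels lay between -4.70 and -3.75, while the aortas fell into 2 early and 2 later samples, with replicates 3 and 4 the earlier ones.

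miR-409-3p, from the far end of the cluster, crossed at 27.4, 27.9 and 29.7 in M1 macrophages, against 19.98, 21.5, 19.9 and 20.6 in aortas. Its difference was smaller, at 36.3-fold lower in macrophages (log2 difference -5.18 ± 0.39 SE, limma adjusted p = 5.27e-05). miR-667 crossed at 26.9, 25.9 and 28.9 in M1 macrophages, against 22.5, 23.9, 21.8 and 22.5 in aortas, and was 3.77-fold lower in macrophages (log2 difference -1.91 ± 0.40 SE, limma adjusted p = 0.00512). Among members detected in every aorta it had the smallest spread there, with an SD of 0.0936.

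miR-410 closes the cluster and was detected in 2 macrophage samples, at Ct 31.0 and 31.5, with the other past the limit at 35.997, against 23.4, 25.5, 23.4 and 24.0 in aortas. It was 56.3-fold lower in macrophages (log2 difference -5.81 ± 0.51 SE, limma adjusted p = 9.58e-05), a fold that depends on the limit. miR-382 was detected in 1 macrophage sample, at Ct 33.0, with the others at 38.03 and 40, against 24.0, 25.2, 21.4 and 21.9 in aortas. Its difference was -8.54 ± 0.81 SE (limma adjusted p = 0.000134), and -7.80 without macrophage replicate 1. miR-154* was also detected in 1 macrophage sample, at Ct 32.7, with the others at 40, against 27.8, 28.7, 27.1 and 29.6 in aortas. Its difference was -3.29 ± 0.80 SE (limma adjusted p = 0.0103), and -2.49 without macrophage replicate 1.

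Members detected in no macrophage sample have a bound only. Their macrophage values are the limits of the samples themselves. The macrophage part of their SE and adjusted p is thus the spread of the limits, not of the miRNA. miR-485* lay at 40, 35.02 and 40 in M1 macrophages, against 22.8, 24.1, 22.1 and 23.0 in aortas, and it was at least 655-fold lower in macrophages (limma adjusted p = 3.78e-05). Its partner strand miR-485 was at least 147-fold lower. miR-134 is known from rat hippocampal neurons, where it limits the size of dendritic spines through Limk1. It never crossed in macrophages, against 23.9, 25.0, 24.0 and 24.5 in aortas, and was at least 259-fold lower.

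miR-495 and miR-543, the similar pair, were also detected in no macrophage sample. miR-495, whose inhibition improves blood flow recovery after ischaemia in mice, as does that of miR-329, miR-487b and miR-494, was at least 160-fold lower in macrophages and miR-543 at least 29.4-fold lower. In the aortas miR-543 crossed after miR-495 by 2.71, 2.48, 1.92 and 2.67 cycles. miR-329 was at least 8.57-fold lower in macrophages, with aorta levels within 0.57 of one another. Without macrophage replicate 3, whose limit is the highest of the 3, each of the 14 bounds in this group moved by -0.683 on the log2 scale. miR-323-3p and miR-409-5p moved to -3.46 and -3.64 without aorta replicate 1, from -4.05 and -4.25 with all samples.

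For 6 tested members undetected in macrophages, the aorta wells themselves came near the limit or missed it, and no call was made. They are miR-380-3p, miR-300*, miR-487b, miR-154, miR-496 and miR-369-3p. miR-369-3p, which in human cells acts on the translation of tumour necrosis factor messenger RNA, crossed at 30.6, 33.97, 31.9 and 31.7 in aortas. miR-487b passed as lower without aorta replicate 4, where it did not cross (-4.37, adjusted p = 0.0147). For the other 5 the values of all 7 samples under this limit and scaling allow no statement on whether the macrophages hold less. Without macrophage replicate 3, whose limit is the highest, miR-496 and miR-380-3p passed as lower (-2.57 and -1.33, limma adjusted p = 0.0212 and 0.0485). miR-369-3p, miR-154 and miR-300* did not. With the limit at Ct 38, miR-496, miR-380-3p and miR-369-3p passed as lower. Their differences were -4.77, -2.755 and -3.198 (limma adjusted p = 0.0024, 0.0119 and 0.0144). At Ct 32 the differences of these members were 0.81, 1.85 and 1.90, and none passed. They also passed as lower with snoRNA135 and snoRNA202, no scaling and the deposited values, but not with MammU6.

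**Figure D2:**
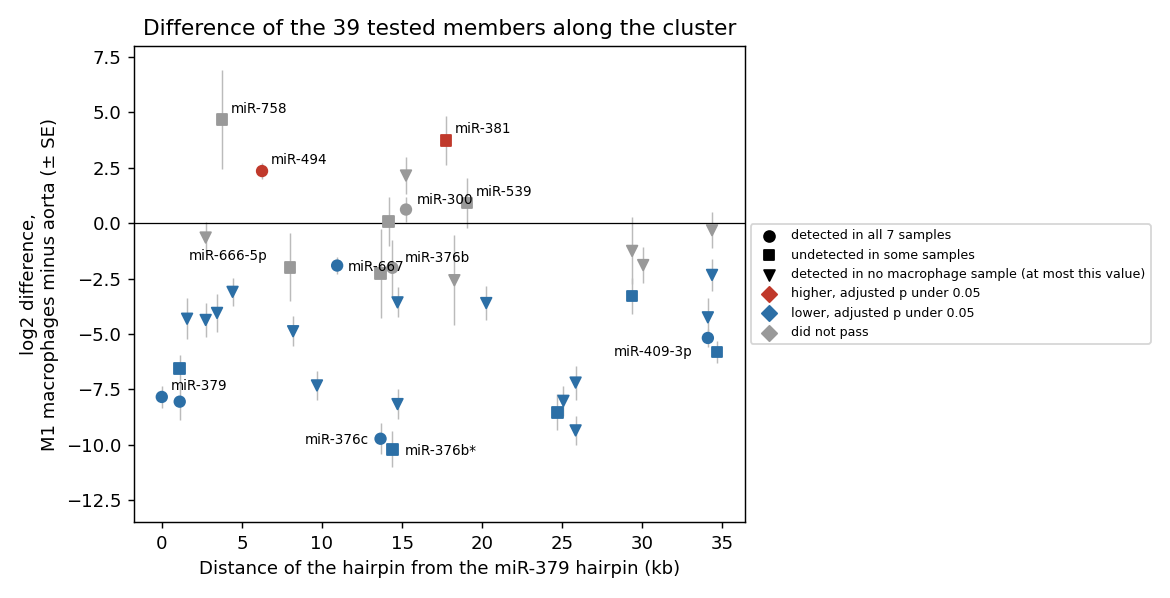
Difference in scaled level, M1 macrophages minus aorta (log2, bars ± SE), of the 39 tested members against the distance of their hairpin from that of miR-379 (kb). Blue points passed as lower, red points as higher, and grey points did not pass; triangles are upper bounds for members detected in no macrophage sample. Lower members lie along the whole cluster, from miR-379 at 0 kb to miR-410 at 34.66 kb, with miR-494 and miR-381 above 0 between them.

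Place in the cluster did not order the differences. Across the 39 tested members, which share samples, depth and precursor, Spearman's rho between place and difference was 0.043. With the GC content of the mature sequence it was -0.16 over the 35 tested members with a sequence. With the aorta level it was -0.75, where the difference contains the aorta level and the limit caps it.

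miR-494 stood apart from the members around it. Its Ct was 25.9, 26.04 and 28.0 in M1 macrophages, against 25.97, 27.9, 25.5 and 26.2 in aortas, so the raw values overlapped. Relative to the shared miRNAs it was at -0.53, -0.59 and -0.25 in M1 macrophages and at -2.48, -3.16, -2.85 and -2.74 in aortas, 5.10-fold higher in macrophages (log2 difference 2.35 ± 0.36 SE, limma adjusted p = 0.00127). The call rests on the scaling. It held with quantile normalization (3.02, adjusted p = 0.000329) and with the miRNA mean taken without the Dlk1-Dio3 miRNAs (2.18, adjusted p = 0.00184), and not with the other 4. With snoRNA135 and snoRNA202 the difference was 0.11 (adjusted p = 0.837), with MammU6 1.70 (adjusted p = 0.155), with the authors' deposited values 1.36 (adjusted p = 0.0745), and with no scaling -0.29 (adjusted p = 0.811).

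Differences in Ct within a sample need no scaling, and the pairs used here were chosen after their values were seen. miR-376c crossed after miR-494 by 4.94, 2.13 and 4.97 cycles in M1 macrophages and before it by 7.55 to 8.38 cycles in aortas. miR-379 crossed after miR-494 by 2.76 to 4.10 cycles in M1 macrophages and before it by 6.46 to 7.46 cycles in aortas. miR-409-3p crossed after it by 1.52 to 1.83 cycles in M1 macrophages and before it by 5.53 to 6.33 cycles in aortas. The order of these 3 members against miR-494 was thus turned round in every macrophage sample relative to every aorta. miR-667 crossed after miR-494 by 0.997 and 0.889 cycles in M1 macrophage replicates 1 and 3 but before it by 0.147 in replicate 2, and before it by 3.47 to 3.99 cycles in aortas. miR-300 crossed after miR-494 in both groups, by 2.81 to 3.25 cycles in M1 macrophages and 0.409 to 2.15 cycles in aortas.

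miR-381 was the other member that passed as higher. It crossed at 30.8, 33.0 and 32.1 in M1 macrophages, against 30.7 and 31.6 in aorta replicates 3 and 4, and did not cross in aorta replicates 1 and 2. It was 13.4-fold higher in macrophages (log2 difference 3.74 ± 1.11 SE, limma adjusted p = 0.023), a fold that depends on the limit. The adjusted p was 0.0707 without macrophage replicate 1, 0.075 without macrophage replicate 3 and 0.0524 without aorta replicate 2. The difference was 4.68 without macrophage replicate 2, 3.12 without macrophage replicate 3 and 3.08 without aorta replicate 1. It did not pass with snoRNA135 and snoRNA202, the deposited values or no scaling (adjusted p = 0.221, 0.0953 and 0.478).

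miR-300, the near copy of miR-381, crossed at 29.1, 29.3 and 30.8 in M1 macrophages, against 28.1, 29.7, 26.5 and 26.6 in aortas. Its scaled levels overlapped, and it did not pass (log2 difference 0.62 ± 0.55 SE, limma adjusted p = 0.385). The sign of that difference turned under 4 of the 6 other scalings, and with snoRNA135 and snoRNA202 it passed as lower (-1.62, adjusted p = 0.0256). Within samples miR-381 crossed after miR-300 by 1.64, 3.75 and 1.27 cycles in M1 macrophages, against at least 6.88 and at least 5.25 cycles in aorta replicates 1 and 2 and 4.21 and 5.04 cycles in aorta replicates 3 and 4.

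miR-758 represses the cholesterol exporter Abca1 in mouse and human macrophages. It crossed at 29.7, 28.2 and 29.7 in M1 macrophages, and at 28.5 and 26.4 in aorta replicates 1 and 4, while aorta replicates 2 and 3 never crossed. The difference of 4.67 ± 2.24 SE did not pass (limma adjusted p = 0.118). It did with quantile normalization (5.17, adjusted p = 0.0399) and without aorta replicate 4 (6.23, adjusted p = 0.023).

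miR-376b varied most among the macrophage samples of all members detected in each. It crossed at 27.6, 25.2 and 33.4 in M1 macrophages, against 23.7, 24.6, 24.1 and 23.8 in aortas. Every raw value of the macrophages was later, while the scaled levels overlapped. The difference of -2.01 ± 1.27 SE did not pass (limma adjusted p = 0.218). It did without macrophage replicate 2 (-3.39, adjusted p = 0.0333), with snoRNA135 and snoRNA202 (-4.25, adjusted p = 0.0241) and with no scaling (-4.66, adjusted p = 0.0355). miR-666-5p crossed at 26.1 and 26.5 in M1 macrophage replicates 1 and 2 and not at all in replicate 3, against 24.0, 26.3, 23.5 and 24.4 in aortas. Its difference was -1.99 ± 1.53 SE (limma adjusted p = 0.31) and 0.23 without macrophage replicate 3, and it passed as lower with snoRNA135 and snoRNA202 (-4.23, adjusted p = 0.0407). miR-539 crossed at 30.4 and 28.4 in M1 macrophage replicates 1 and 2 and not in replicate 3, against 27.6, 31.9, 28.4 and 30.0 in aortas, and did not pass (log2 difference 0.90 ± 1.14 SE, limma adjusted p = 0.543).

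Wells at odds with other samples of their group were also seen in 1 control assay outside the cluster. The assay for a plant miRNA, which has no mouse counterpart, crossed at 31.4 in macrophage replicate 3 and not in the other 2, and at 27.9, 28.4 and 21.1 in aorta replicates 1 to 3 and not in replicate 4. The part of such wells in the values of miR-758, miR-376b, miR-666-5p and miR-381 was not tested.

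**Figure D3:**
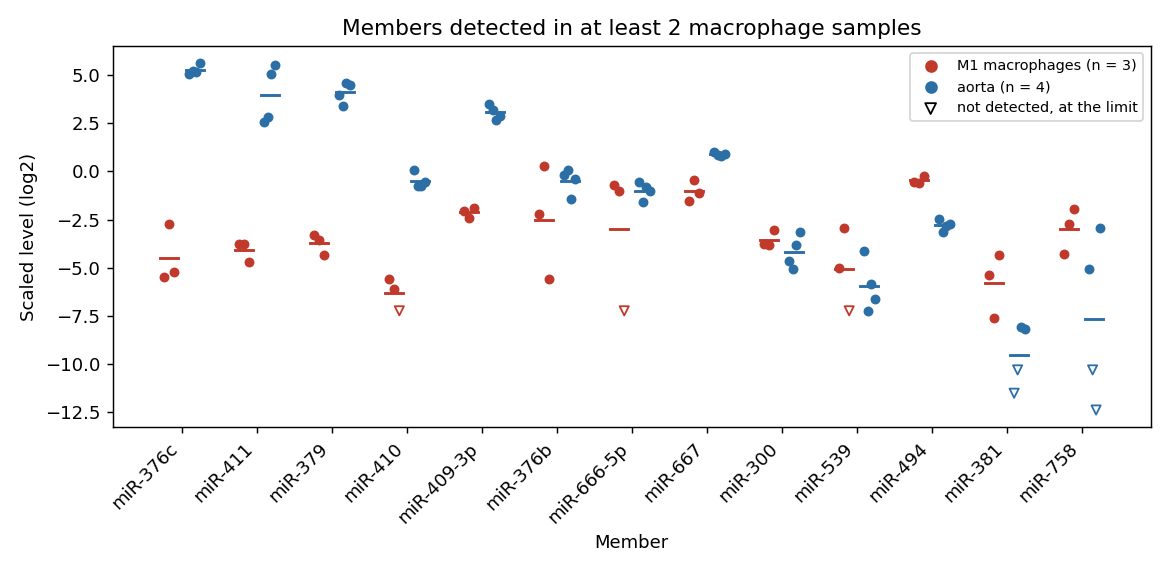
Scaled level (log2) of the 13 members detected in at least 2 macrophage samples, with M1 macrophages (red, n = 3) left of aortas (blue, n = 4), each point a sample and each bar a group mean; open triangles are undetected wells at the limit. The groups are furthest apart for miR-376c, and miR-494 and miR-381 are the 2 that passed as higher in macrophages.

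**Figure D4:**
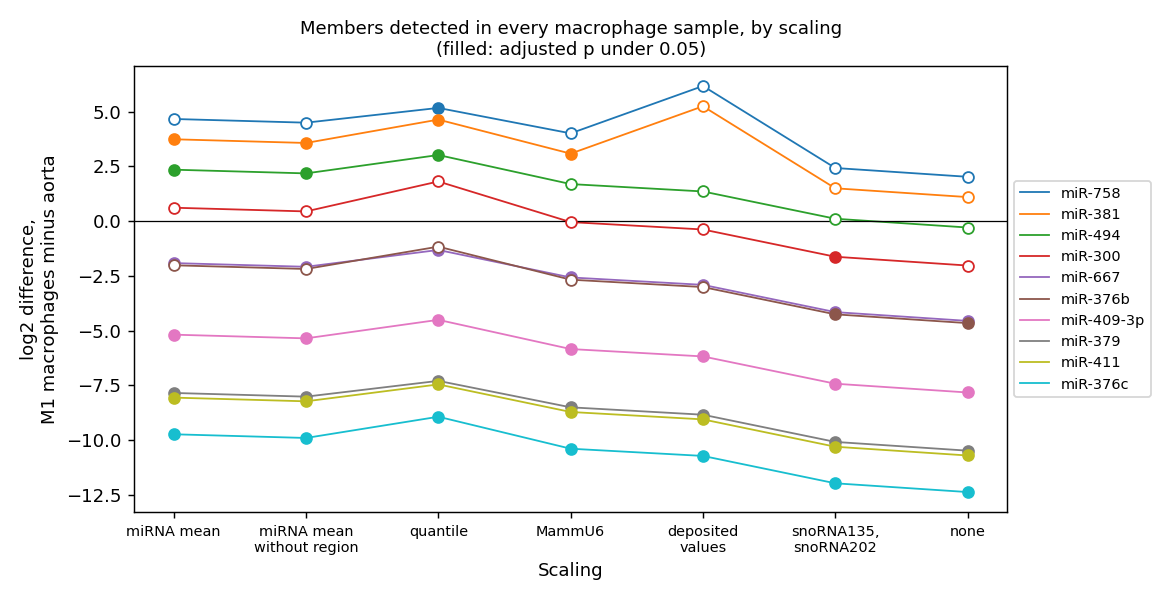
Difference in scaled level, M1 macrophages minus aorta (log2), of the 10 members detected in every macrophage sample, under 7 scalings, filled where the adjusted p was under 0.05. miR-376c, miR-411, miR-379, miR-409-3p and miR-667 are lower and filled under each, while miR-494 runs from 3.02 with quantile normalization to -0.29 with no scaling.

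The strands of the miR-376b hairpin changed places. In M1 macrophages miR-376b* crossed after miR-376b, by 4.22 cycles in replicate 1 and by at least 9.85 and at least 1.64 cycles in replicates 2 and 3, where it missed Ct 35. In the aortas it crossed before it, by 2.13, 1.69, 4.53 and 3.50 cycles. No member hairpin had both strands detected in all 7 samples, so none entered the test of strand differences at that limit, which called 35 of 65 hairpins of the panel (53.8%). With the limit at Ct 38, where the star strand counts at 31.8, 35.1 and 35.8 in M1 macrophages, miR-376b was the 1 member hairpin tested. The Ct of miR-376b minus that of its star strand differed by -8.52 ± 1.58 cycles SE between M1 macrophages and aortas (limma, Benjamini-Hochberg adjusted p = 0.00284 over 68 hairpins), at a background of 47.1% of hairpins called.

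Taken alone, miR-376b* crossed at 31.8, 35.1 and 35.8 in M1 macrophages, against 21.6, 22.9, 19.5 and 20.3 in aortas. It was 1190-fold lower in macrophages (log2 difference -10.21 ± 0.81 SE, limma adjusted p = 6.56e-05), with 1 macrophage sample detected and the fold dependent on the limit. The difference was -10.87 without macrophage replicate 1 and -9.28 without macrophage replicate 2.

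The neighbouring hairpins gave other patterns. In M1 macrophage replicate 1 miR-376c* crossed before miR-376c by 2.38 cycles, at Ct 28.5, and in replicates 2 and 3 it was not detected. In aortas it crossed after miR-376c by 6.97, 7.51, 9.85 and 14.1 cycles. miR-376a was undetected in M1 macrophages, at least 7.40, 9.85 and 1.64 cycles after miR-376b. In every aorta it crossed within 1.29 cycles of miR-376b, at 24.4, 25.9, 22.9 and 23.6, and it was at least 287-fold lower in macrophages (limma adjusted p = 8.1e-05). miR-376a* crossed after miR-376a by 3.67 to 5.34 cycles in aortas.

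In the other hairpins the same strand came first wherever both could be read, apart from miR-154 and miR-654. miR-409-5p crossed after miR-409-3p by at least 7.56, 7.13 and 5.33 cycles in M1 macrophages and by 6.25, 8.04, 7.72 and 8.41 cycles in aortas. miR-411* crossed after miR-411 by 4.80 cycles in M1 macrophage replicate 2 and by at least 5.86 and 2.54 in replicates 1 and 3, against 4.00, 4.49, 7.08 and 7.99 cycles in aortas. miR-300* crossed after miR-300 by at least 5.86, 5.71 and 4.17 cycles in M1 macrophages, against 5.39, at least 5.25, 8.48 and 8.01 in aortas.

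miR-485 crossed after its star strand by 1.34 to 2.86 cycles in aortas, miR-380-3p after miR-380-5p by 2.48 to 4.43, and miR-369-3p after miR-369-5p by 1.34 to 3.00. The order of the miR-154 strands differed among aortas, with the star strand first by 5.25 cycles in replicate 1 and after by 0.58 in replicate 4. miR-654-3p was detected in M1 macrophage replicate 1 and in 3 aortas, while miR-654-5p was detected in 1 aorta, where it crossed 0.83 cycles earlier. A Ct difference between assays also holds any difference in their efficiency, so these orders are those of the assays.

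**Figure D5:**
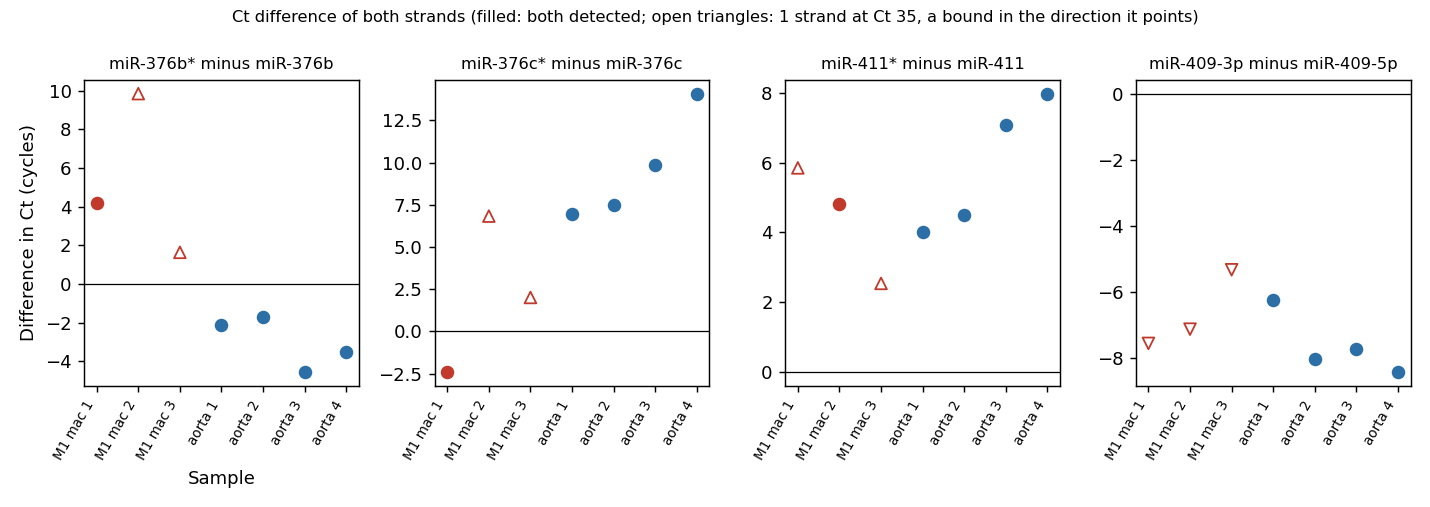
Ct difference between both strands of 4 hairpins (cycles, as titled above each panel) in 3 M1 macrophage samples (red) and 4 aortas (blue); open triangles mark a strand at the limit and point the way the true value lies. For miR-376b all macrophage points lie above 0 and all aorta points below it.

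Among the aortas the members kept a wide range of levels. The 33 members detected in all 4 ran from a mean scaled level of 5.26 for miR-376c to -8.48 for miR-369-3p. After miR-376c came miR-379 at 4.12 ± 0.55, miR-411 at 3.99 ± 1.52 and miR-409-3p at 3.06 ± 0.365 (SD, n = 4 each), and each of these 3 overlapped with the next in order. miR-376b* followed at 2.48 ± 0.724, miR-667 at 0.88 ± 0.0936, miR-485* at 0.56 ± 0.113 and miR-382 at 0.42 ± 1.07. In this order the neighbours that did not overlap were miR-376c and miR-379, miR-376b* and miR-667, and miR-667 and miR-485*. The median SD of the 33 was 0.662, against 0.619 for 340 miRNAs outside the region detected in all aortas.

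Some members split the aortas the same way. miR-377 and miR-381 were detected in aorta replicates 3 and 4 only. miR-411, miR-382 and miR-376b* also had their higher scaled levels in those 2 samples, with miR-382 at 1.21 and 1.48 in replicates 3 and 4 and -0.49 and -0.52 in replicates 1 and 2. miR-485 and miR-134 went the other way, miR-485 being at -2.27 and -2.43 in replicates 3 and 4 and -0.63 and -1.07 in replicates 1 and 2. miR-679 was detected in aorta replicates 1 and 3, at Ct 30.1 and 23.2. The labels give nothing that sets these aortas apart, and the split was not tested.

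The other measured miRNAs of the Dlk1-Dio3 region gave a like picture. Of 21, 6, 6 and 4 were detected in M1 macrophages and 17, 14, 18 and 16 in aortas. A macrophage sample thus held 19.0% to 28.6% of the 21, beside 63.1% to 70.8% of all miRNAs. An aorta held 66.7% to 85.7% of them, beside 80.5% to 87.8% of all miRNAs. M1 macrophages were lower for 11 of the 16 tested, 5 did not pass, and the median difference was -5.53. Over all 429 miRNAs tested, 30.8% were lower and the median was -0.208. Of the 16, 13 entered the test through the aortas alone, and 9 were detected in no macrophage sample. Their count of calls and median carry that selection. In none of the macrophage samples and all 4 aortas, 7 of the 21 were detected (33.3%), a pattern of 9.28% of all 517 miRNAs. miR-127, which lies antisense to the imprinted gene Rtl1, had a difference of -12.12 ± 0.62 SE (limma adjusted p = 1.19e-05), with 2 macrophage samples detected. miR-673-5p was detected in all 7 samples and did not pass (0.28 ± 0.51 SE, limma adjusted p = 0.665).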

How the data were processed

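Levels of miRNAs were measured by quantitative PCR in 3 M1 macrophage cultures and 4 aortas. RNA was isolated with a mirVana kit, per the labels' protocols. The sources used here do not name the instrument, the threshold or a preamplification. The authors' deposited raw table gives Ct values for 524 assays, 517 of them for mouse miRNAs and 7 controls. Repeated wells of an assay were averaged. The authors' deposited second table holds log2-scale values that equal each Ct less the mean of that sample's MammU6 and snoRNA202 wells, within 5e-05 cycles, a reading made from the values.

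From the Ct values, scaled levels were computed as described above, and groups were compared over all 429 miRNAs that passed the filter (detection in 3 or more samples of 1 group), with limma 3.58.1 (lmFit, eBayes, 2-sided) in R 4.3.3, group as the only term and Benjamini-Hochberg adjustment at 0.05. Strand differences used limma on the Ct difference within a sample, over hairpins with both strands detected in all 7 samples. The limma step was tested on simulated data with normal spread, no detection limit and no difference in depth. That test does not bear on values set at the limit. Where a member was detected in no macrophage sample, the fold is a lower bound computed at the limit. The SE and p of such a member measure no spread of the miRNA among the macrophage samples. Depth here is each sample's mean Ct over the 296 shared miRNAs, which sets where the limit falls on the scaled level. The 7 samples limit the precision.

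Alternatives were 6 other scalings, limits of Ct 32 and Ct 38, other filters, leaving out each sample and a replicate block. The members and lists were chosen with earlier results of these data known. Members named with values were those detected in at least 2 macrophage samples, the 8 highest in aorta, the 6 with the largest lower differences, those higher, hairpins with both strands measured, members that share a seed, and the member detected in no sample. Any other member named was picked after its values were seen. The numbers shared by macrophage and aorta samples did not pair them, as deviations of same-numbered samples had r = 0.11, 0.0077 and -0.074 over 296 miRNAs. Tables and plots used Python 3.11.15, pandas 2.3.3, numpy 2.4.6 and matplotlib 3.10.9.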

Additional observations from a re-analysis of the deposited data

Results flagged for a closer look

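miR-323-3p had a scaled level of -2.965 in aorta replicate 1, against -5.34, -5.25 and -5.43 in the other aortas, a gap larger than Dixon's test allows for 4 samples. miR-376a* had a scaled level of -4.525 in aorta replicate 1, against -5.46, -5.39 and -5.51 in the others, and was picked out in the same way. These were 2 of 43 members checked, and chance alone picks out about 1 in 20 groups.

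The strand difference of miR-376b changed by -8.518 cycles between M1 macrophages and aortas with the limit at Ct 38, which passed the test of the difference itself (limma adjusted p = 0.00284 over 68 hairpins). All 3 macrophage samples lay on 1 side of 0 and all 4 aortas on the other. In 2 of the macrophage samples the star strand crossed past Ct 35, so the size there depends on late wells.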

How the results depend on the processing

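The scaling set the number of higher calls. Lower and higher calls over all miRNAs were 132 and 106 with the miRNA mean. They were 231 and 32 with snoRNA135 and snoRNA202, 124 and 52 with MammU6, 207 and 10 with no scaling, 155 and 53 with the deposited values, and 118 and 147 with quantile normalization. These scalings shifted the median of all differences by -2.24, -0.657, -2.64, -0.994 and 0.57. With only miRNAs detected in all 7 samples, 76 were lower. For the members, higher calls went from 2 to 0, 1, 0 and 0 under the first 4 of these scalings, to 1 at Ct 32 and to 1 with only miRNAs detected in all 7 samples, and lower calls from 24 to 15 at Ct 32 and to 5 with that filter. At an unadjusted p under 0.05, limma had 0 members higher with snoRNA135 and snoRNA202, 0 with no scaling and 1 with the deposited values. The members' median was -5.81 with snoRNA135 and snoRNA202, -6.21 with no scaling, -8.26 with the deposited values, where uncrossed wells enter at their listed value, -1.60 at Ct 32 and -5.82 at Ct 38. For the other Dlk1-Dio3 miRNAs the median was -7.77, -8.17, -10.8, -3.52 and -7.69 under the same settings and -3.15 with no filter, lower calls were 2 among those detected in all 7 samples, and higher calls 2 with no filter. Members detected in every macrophage sample fell to 5 at Ct 32, and the strand test called 1 member hairpin at Ct 38.

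Leaving out 1 sample at a time gave 23 to 26 lower and 1 to 3 higher members, and a median of -4.33 to -3.20. miR-369-5p lost its call without macrophage replicate 1 or 2 or aorta replicate 1 or 2 (adjusted p = 0.0951, 0.105, 0.0596 and 0.0549). Over all miRNAs it gave 115 to 139 lower and 90 to 112 higher. Among members whose difference is given above, signs turned for miR-494 with no scaling (-0.29), for miR-666-5p without macrophage replicate 3 (0.23, where leaving out 1 sample gave -3.13 to 0.23), and for miR-369-5p at Ct 32 (0.37). They turned for miR-300 with snoRNA135 and snoRNA202 (-1.62), MammU6 (-0.041), no scaling (-2.03) and the deposited values (-0.38), and for miR-539 with snoRNA135 and snoRNA202 (-1.34), no scaling (-1.74), the deposited values (-1.76) and without macrophage replicate 2 (-0.14, where leaving out 1 sample gave -0.14 to 2.09). Of members that made no call, miR-300*, miR-654-3p, miR-380-3p, miR-369-3p and miR-496 also turned under at least 1 setting. The cause of these turns was not tested.

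The replicate block over the 3 shared numbers gave 24 lower members, losing miR-369-5p and gaining miR-487b (adjusted p = 0.0438), and 3 higher, gaining miR-758 (6.23, adjusted p = 0.0461). It leaves out aorta replicate 4, and without that sample both also passed with no block. The numbers share only a label, so no pairing is read from this. The limit of Ct 35 bounds what can be said of members undetected in macrophages, most of all in replicate 3.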
